A study of Mus musculus with 12 samples.

Results

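Collagen chains, laminin chains and the proteins of elastic fibres form much of the extracellular matrix of the developing lung. The genes described here were taken by symbol from the array annotation. They are the numbered collagen chains other than Col2a1 and the Col9 chains, the chains Lama, Lamb and Lamc, the genes Eln, Fbn2 and Lox, and the Loxl, Fbln and Emilin families. The rule found 55 genes with 79 probes out of 16593 named genes and 25697 probes on the array. Fn1, Fbn1, Col6a3, Lama3, Lama5, Col12a1 and Col8a1 were not analysed here.

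Messenger RNA was measured on Illumina bead arrays in whole lungs of E15.5 mouse embryos on a 129/Sv background, in 3 genotypes with 4 arrays each. The double mutant was Mek1flox/flox;Mek2-/-;Dermo1+/Cre, the second group was Mek1+/flox;Mek2-/-;Dermo1+/Cre and is called 1 Mek1 allele, and the control was Dermo1+/Cre. Map2k1 and Map2k2 code for MEK1 and MEK2, the kinases directly upstream of ERK in the MAPK cascade. The Dermo1-Cre driver sits in the Twist2 locus and is active in mesenchymal cells of the embryo. All 12 embryonic samples therefore carried the Cre allele, both mutant groups were labelled Mek2-/-, and floxed Mek1 was open to deletion only where Cre had been expressed. Whether samples were pooled is not in the labels, so p-values measure the spread between these samples.

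Fibrillar collagens form the cross-linked fibres that resist stretch in airway and vessel walls. Collagen IV and the laminins, each a trimer of 3 chains, assemble the basement membrane under the epithelium, endothelium and mesothelium. Elastin is laid down on fibrillin microfibrils, bound by fibulins and emilins and cross-linked by lysyl oxidases, and lets the later alveolar lung recoil.

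Promoter windows were available from RefSeq (GRCm38.p6, 250 bases before to 50 after each start) for 39 of the 55 genes, 25 of which were tested. Windows are shown for Lamb2, the single gene of the group that passed the test, for Col4a1 and Col4a2, which are read in opposite directions from starts 21 bases apart so that their windows overlap by 78 bases, and for Col4a5 and Col4a6, a second opposed pair with starts 1343 bases apart. They lie at chr9:108479612-108479911 on the plus strand (Lamb2), chr8:11312777-11313076 on the minus strand (Col4a1), chr8:11312555-11312854 on the plus strand (Col4a2), chrX:141475169-141475468 on the plus strand (Col4a5) and chrX:141474027-141474326 on the minus strand (Col4a6). Each is written 5′ to 3′ on the strand of its gene. Capitals mark the GC box (GGGCGG), the CCAAT box (CCAAT) and the CTC box known from collagen IV promoters (CCCTCCCC or CCCTTCCCC), on either strand.
Lamb2: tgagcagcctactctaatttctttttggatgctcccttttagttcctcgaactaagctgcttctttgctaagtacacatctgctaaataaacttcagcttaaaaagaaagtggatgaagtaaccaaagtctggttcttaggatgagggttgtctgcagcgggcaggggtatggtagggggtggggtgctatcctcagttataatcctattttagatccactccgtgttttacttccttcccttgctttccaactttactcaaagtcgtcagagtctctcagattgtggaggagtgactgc
Col4a1: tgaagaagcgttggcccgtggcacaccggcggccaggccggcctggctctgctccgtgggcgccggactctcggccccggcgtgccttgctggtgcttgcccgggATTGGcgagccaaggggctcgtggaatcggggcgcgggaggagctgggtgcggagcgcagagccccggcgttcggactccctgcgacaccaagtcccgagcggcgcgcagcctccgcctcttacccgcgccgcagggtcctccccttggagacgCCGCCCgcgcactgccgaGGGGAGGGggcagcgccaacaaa
Col4a2: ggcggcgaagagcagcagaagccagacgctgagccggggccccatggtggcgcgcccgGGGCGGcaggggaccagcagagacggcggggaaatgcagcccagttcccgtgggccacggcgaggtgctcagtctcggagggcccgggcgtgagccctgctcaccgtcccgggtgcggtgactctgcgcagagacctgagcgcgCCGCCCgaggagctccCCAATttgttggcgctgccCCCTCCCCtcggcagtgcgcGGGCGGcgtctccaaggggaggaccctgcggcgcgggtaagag
Col4a5: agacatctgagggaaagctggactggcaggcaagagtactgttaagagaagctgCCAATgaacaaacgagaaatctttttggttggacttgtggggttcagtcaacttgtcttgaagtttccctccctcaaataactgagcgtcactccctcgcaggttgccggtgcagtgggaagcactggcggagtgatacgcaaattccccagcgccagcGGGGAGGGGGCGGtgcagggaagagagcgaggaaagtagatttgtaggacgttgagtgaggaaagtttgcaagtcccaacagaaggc
Col4a6: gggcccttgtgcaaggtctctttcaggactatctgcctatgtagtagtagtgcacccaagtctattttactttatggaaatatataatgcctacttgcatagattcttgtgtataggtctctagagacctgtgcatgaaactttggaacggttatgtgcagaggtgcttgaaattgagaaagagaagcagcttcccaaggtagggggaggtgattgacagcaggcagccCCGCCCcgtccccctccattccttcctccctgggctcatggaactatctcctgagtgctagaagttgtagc
The Lamb2 window held none of the letters searched. Both Col4a1 and Col4a2 held all 3 kinds of box. The CTC box and the GC box of Col4a1 lie in the overlap and are the same bases as boxes marked in Col4a2. The shares below count them in both windows. Col4a5 also held all 3, with its CTC box and GC box overlapping in 1 run of capitals, whereas Col4a6 held a GC box only. Over all windows of the matrix genes, a GC box stood in 57.8%, against 35.7% of the windows of all genes. A CTC box stood in 26.7%, against 12.3%, and a CCAAT box in 33.3%, against 37.4%. The median GC content was 60.3% in the windows of the matrix genes and 52.7% in all windows. TATAAA was found in 11.1%, against 13.6%. The letters CCGGAA, the core bound by ETS factors, which ERK can phosphorylate, were found in 1 gene of the group (Emilin2), or 2.22% of windows against 14.9%. The AP-1 letters TGACTCA or TGAGTCA were found in Col6a1 alone, or 2.22% against 5.20%. These are matches of letters on both strands, not measured binding sites.

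Of the 55 genes, 37 were tested because a probe was above background, with a detection p under 0.01, on 4 or more arrays, 33 of them detected on all 12. The other 18 did not pass. Of these, 11 were detected on no array, among them Fbln5, Loxl3, Loxl4, Col5a3, Col10a1 and Col11a2, and 7 on 1 to 3 arrays, among them Lamb1, Lama4, Lamc3 and Col5a2. Failing the filter does not show that a gene was silent, because 42 of the 55 genes had only 1 probe. Levels below are log2 of normalized intensity. Probes of 1 gene could differ widely: those of Col18a1 averaged 12.77, 8.43 and 4.87 in double mutants, the last detected on 0 arrays. Genes with more than 1 probe past the filter are given by the brightest, and levels of different genes were not set against each other.

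The arrays were checked before the comparisons. Map2k2 averaged 10.85 ± 0.24 in double mutants and 10.58 ± 0.15 with 1 Mek1 allele, against 11.59 ± 0.08 in controls (log2, SD, n = 4 each), lower on all 8 mutant arrays, at 0.60-fold of controls in double mutants and 0.49-fold with 1 Mek1 allele. This probe stayed above background on every Mek2-/- array. The other Map2k2 probe, which read lower, was detected in 1 of 4 double mutants, 0 of 4 arrays with 1 Mek1 allele and 4 of 4 controls. The position of these probes relative to the deleted sequence was not analysed here, so neither level measures how complete the loss was. Map2k1 was above background on 0 of 12 arrays, so deletion of the floxed allele could not be read. Twist2 was detected on all arrays and differed by 0.09 ± 0.15 (log2 difference ± SE) between double mutants and controls. Of 7 lung markers, 6 were measured in all groups (Nkx2-1, Tbx4, Tbx5, Foxf1, Sftpb and Sftpc) and 0 of them passed the test in any comparison, while no marker of oesophagus, liver or thymus passed the filter. Control replicates 2 and 3 were the brightest arrays before normalization, with raw upper-quartile intensities of 390.1 and 388.3, where the other 10 arrays had 226.6 to 306.4.

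Some arrays leaned low or high among the matrix genes. Double mutant replicate 1 was the lowest of its 4 double mutants in 18 of 37 genes (48.6%), against 26.05% of all 8311 genes tested. It lay more than 0.5 below every other double mutant in Col15a1, Col1a1, Col6a2 and Lamc1. The median difference of the 37 genes from the control mean was -0.02 on this array, and 0.11, 0.09 and 0.20 on double mutant replicates 2, 3 and 4. Leaving the array out raised the median difference of the group between double mutants and controls to 0.13, against 0.06 with all arrays. The array was picked out by its low values, so leaving it out must raise the difference of any gene where it was lowest. Replicate 3 with 1 Mek1 allele was the highest of its 4 in 16 of the 37 genes (43.2%, against 30.7% of all genes) and had the fewest probes above background of all arrays, 10467. Double mutant replicate 4 was the highest of its 4 in 14 genes (37.8%, against 27.3%). Without replicate 3 with 1 Mek1 allele the median difference between that group and controls was -0.08, against -0.06 with all arrays, and without double mutant replicate 4 the median between double mutants and controls was 0.05.

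**Figure D1:**
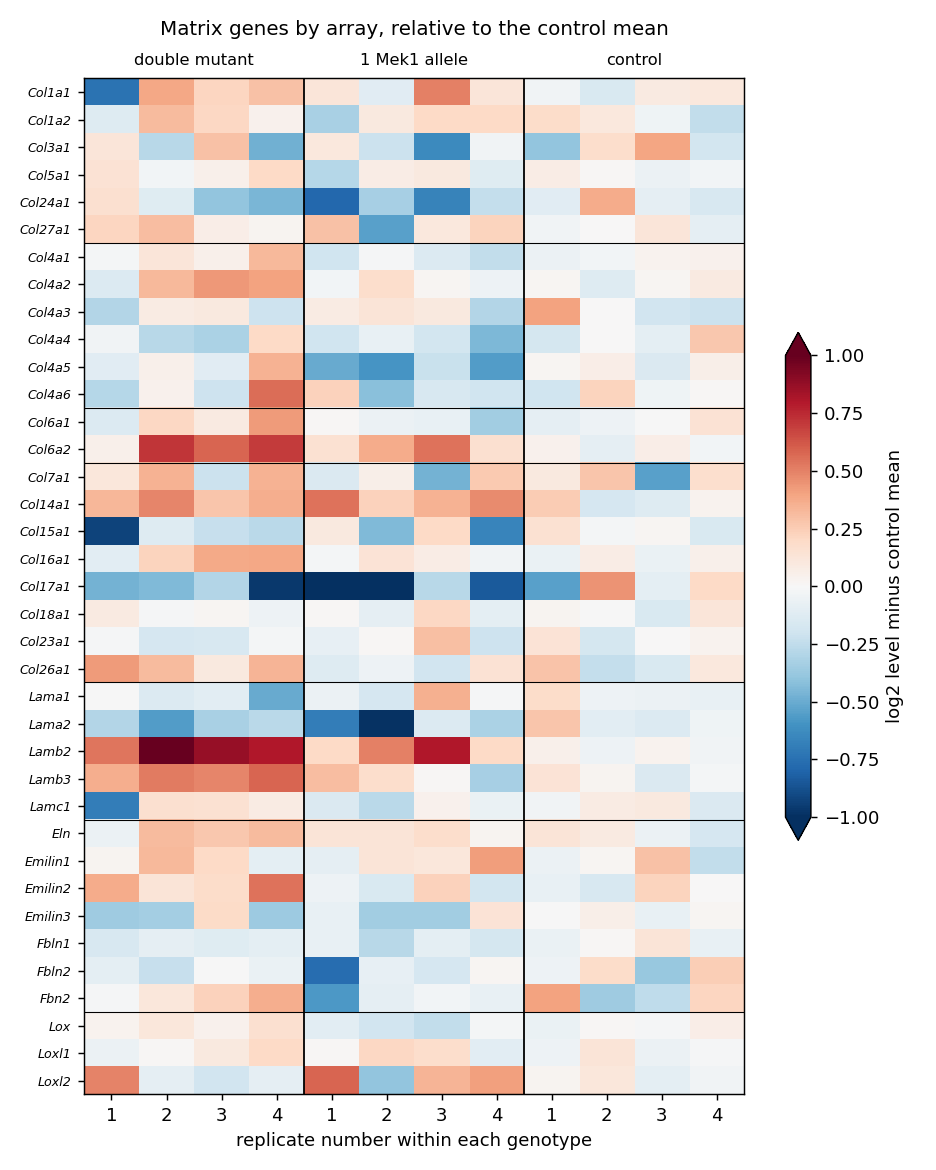
Log2 level of each of the 37 tested matrix genes (rows, by family) on each of the 12 arrays (columns, by genotype), minus the mean of the 4 controls. Red is higher and blue lower, with colours cut at 1 in either direction. The Lamb2 row is red on all 8 mutant arrays, and double mutant replicate 1 holds the strongest blue of its group in Col1a1, Col15a1 and Lamc1.

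The comparison of double mutant with control lungs asked how matrix expression differed in Mek2-/- lungs with both Mek1 alleles floxed. Of the 37 genes, 1 passed the test and was higher in double mutants (Lamb2) and 0 were lower, where 3.02% of all 8311 genes tested were called (limma, two-sided, Benjamini-Hochberg adjusted p under 0.05). In 5 genes the values of double mutants and controls did not overlap, as in 13.7% of all genes. Lamb2, Lamb3 and Col14a1 lay above, and Lama2 and Fbln1 below. The median log2 difference of the 37 genes was 0.06, against -0.0036 over all genes. Of the 37 differences, 13 were negative (35.1%, against 50.7% of all genes). At an unadjusted p under 0.05, 7 of the 37 genes (18.9%) counted, against 18.7% of all genes.

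Laminin chains were the family in which values spread most widely between these genotypes, with differences from -0.36 to 0.82 over 5 tested genes. Lamb2 encodes the β2 chain, which is placed in basement membranes of vessels, smooth muscle and, later in life, the kidney filter. It read 9.01, 9.56, 9.35 and 9.28 in the double mutants. The group with 1 Mek1 allele read 8.68, 8.98, 9.28 and 8.68, and in controls 8.53, 8.43, 8.51 and 8.44. Every double mutant array and every array with 1 Mek1 allele lay above every control, and the double mutants overlapped the group with 1 Mek1 allele. The level was 1.77-fold that of controls in double mutants (log2 difference 0.82 ± 0.14, limma adjusted p = 0.0101). Between 1 Mek1 allele and controls it differed by 0.43 ± 0.14 (adjusted p = 0.169), and between double mutants and 1 Mek1 allele by 0.40 ± 0.14 (adjusted p = 0.306), so neither step passed the test. The call was lost under 2 settings that concern array brightness. Without control replicates 2 and 3 the difference was 0.82 with adjusted p = 0.131, when 10 of all genes were called in place of 251, and with array brightness as a covariate it was 0.74 with adjusted p = 0.0588. Lamb2 was called with each of the 12 arrays left out in turn, with differences of 0.73 to 0.92.

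Lamb3 encodes the β3 chain of laminin-332, the laminin by which epithelia anchor to their basement membrane. It read 9.70, 9.86, 9.83 and 9.92 in double mutants. Arrays with 1 Mek1 allele read 9.64, 9.51, 9.35 and 9.01, and in controls 9.47, 9.37, 9.19 and 9.32. The 4 double mutants lay above all 8 other arrays, whose 2 groups overlapped. The difference was 0.49 ± 0.13 against controls (limma adjusted p = 0.0575) and 0.45 ± 0.13 against 1 Mek1 allele (adjusted p = 0.174), short of the threshold. Lamb3 passed against controls under 10 of the 27 alternative settings that keep the same threshold. Among these were the authors' deposited log2 values (limma adjusted p = 0.0155) and array weights (0.015), and both also raised the calls over all genes. Over the 28 settings its adjusted p against controls ran from 0.0138 to 0.362 and its difference from 0.40 to 0.53. Of 9 epithelial markers measured, 0 passed the test, and their median difference between double mutants and controls was 0.17, against -0.0036 over all genes. Krt18 and Cldn3 lay wholly above controls in double mutants, with differences of 0.29 ± 0.12 and 0.27 ± 0.11 (limma adjusted p = 0.205 and 0.2095), and the other 7 overlapped controls. Their summed normalized intensity ran from 18981 to 22587 in double mutants and from 16676 to 21348 in controls, and the part of epithelium in the Lamb3 difference was not tested.

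**Figure D2:**
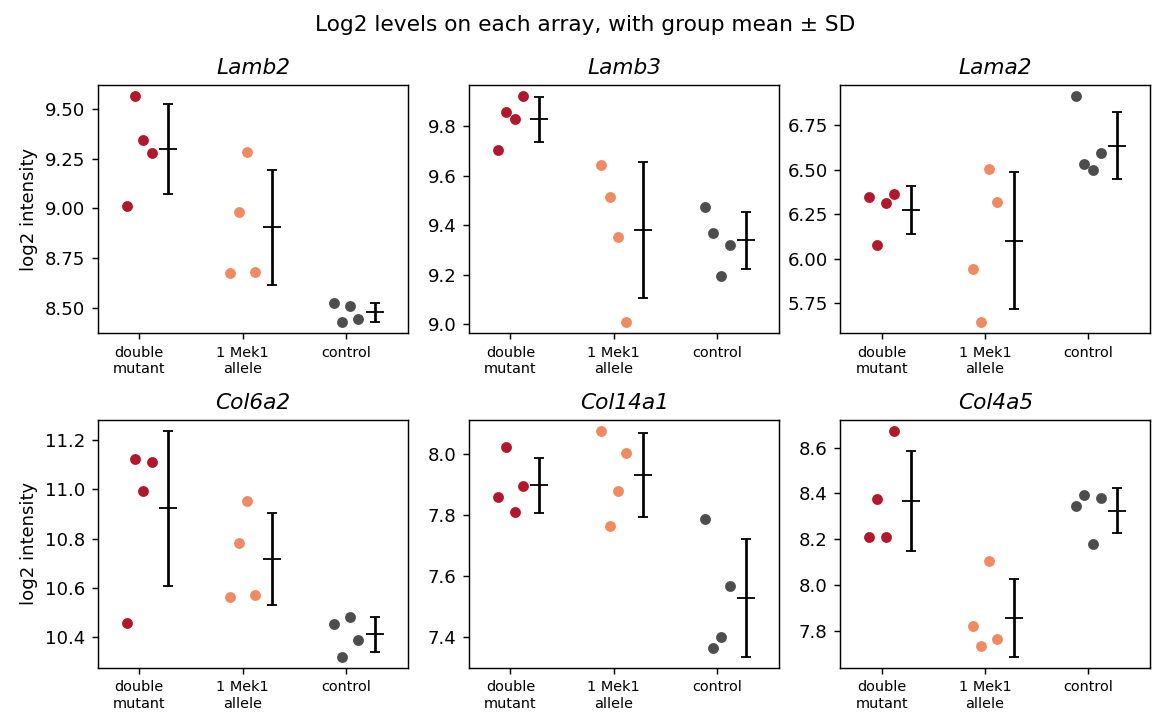
Log2 intensity of Lamb2, Lamb3, Lama2, Col6a2, Col14a1 and Col4a5 on each array, by genotype. Points are arrays and bars the mean ± SD of 4. The means of Lamb2 and Col6a2 are highest in double mutants, then with 1 Mek1 allele, then in controls. Those of Col14a1 differ by 0.03 between the mutant groups, and Col4a5 is lowest with 1 Mek1 allele. Each panel has its own axis range, which does not start at 0.

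The other laminin chains did not pass the test. Lama2, the α2 chain of laminins in muscle and vessel walls, read 6.35, 6.08, 6.31 and 6.36 in double mutants. Lungs with 1 Mek1 allele read 5.94, 5.65, 6.50 and 6.32, and in controls 6.91, 6.53, 6.50 and 6.60. Double mutants lay below all controls, and 2 of the 4 arrays with 1 Mek1 allele lay lower than any other array. The differences from controls were -0.36 ± 0.17 in double mutants (limma adjusted p = 0.268) and -0.53 ± 0.17 with 1 Mek1 allele (adjusted p = 0.142). Lama1, the α1 chain of the earliest basement membranes, averaged 8.43 ± 0.22 in double mutants, 8.65 ± 0.23 with 1 Mek1 allele and 8.62 ± 0.12 in controls (SD, n = 4 each). Lamc1, the γ1 chain shared by most laminins, read 10.29, 11.14, 11.14 and 11.07 in double mutants, and averaged 10.87 ± 0.13 with 1 Mek1 allele and 10.99 ± 0.11 in controls. Its difference between double mutants and controls was -0.07 ± 0.17 with all arrays and 0.13 without double mutant replicate 1, which alone lay low.

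Collagen VI, the beaded microfibril around cells that joins basement membrane to interstitial matrix, had 2 tested chains. Col6a2 (α2 chain) read 10.46, 11.12, 10.99 and 11.11 in double mutants. Values in the 1 Mek1 allele group were 10.56, 10.78, 10.95 and 10.57, and in controls 10.46, 10.32, 10.48 and 10.39. All 4 arrays with 1 Mek1 allele and double mutants 2 to 4 lay above every control, while double mutant replicate 1 lay among the controls. The difference between double mutants and controls was 0.51 ± 0.15 (limma adjusted p = 0.0791), and without replicate 1 it was 0.66 and passed (adjusted p = 0.0127). Replicate 1 was the lowest double mutant here, so leaving it out had to raise the difference. Over the 28 settings the difference ran from 0.44 to 0.66 and its adjusted p from 0.0127 to 0.361. Between 1 Mek1 allele and controls the difference was 0.31 ± 0.15 (adjusted p = 0.318). Col6a1 (α1 chain) had 3 probes past the filter, with differences of 0.14, 0.20 and 0.07 between double mutants and controls. Its brightest probe averaged 12.28 ± 0.24 in double mutants, 12.01 ± 0.16 with 1 Mek1 allele and 12.13 ± 0.10 in controls (SD, n = 4 each).

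Collagen IV, the sheet-forming collagen of basement membranes, had all 6 chains tested and 0 called in any comparison. Col4a5, the α5 chain, read 8.21, 8.38, 8.21 and 8.67 in double mutants. With 1 Mek1 allele it read 7.82, 7.73, 8.10 and 7.76, and in controls 8.34, 8.39, 8.18 and 8.38. Arrays with 1 Mek1 allele lay below all 8 others, and double mutants and controls overlapped. The difference was 0.51 ± 0.12 between double mutants and 1 Mek1 allele (limma adjusted p = 0.0949), -0.47 ± 0.12 between 1 Mek1 allele and controls (adjusted p = 0.0923) and 0.04 ± 0.12 between double mutants and controls (adjusted p = 0.901). Both of the first 2 values rest on the same 4 arrays with 1 Mek1 allele. Col4a5 is X-linked, and the sex of the embryos was not among the labels used here. These 2 differences kept their sign under all 28 settings, 1 of them with Y-linked signal (1 probe) as a covariate. Col4a6, the α6 chain that pairs with α5 and is read from the other side of the same region (the X-linked windows shown above), averaged 6.43 ± 0.38 in double mutants, 6.26 ± 0.27 with 1 Mek1 allele and 6.401 ± 0.17 in controls (SD, n = 4 each).

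Col4a1 and Col4a2 encode the α1 and α2 chains found in nearly every basement membrane. Col4a1 read 12.52, 12.66, 12.59 and 12.86 in double mutants. The group with 1 Mek1 allele read 12.34, 12.52, 12.40 and 12.30, and in controls 12.48, 12.51, 12.57 and 12.59. The highest array was double mutant replicate 4, and every pair of groups overlapped. Col4a2 read 11.61, 12.07, 12.18 and 12.15 in double mutants. Arrays with 1 Mek1 allele read 11.72, 11.92, 11.77 and 11.69, and in controls 11.77, 11.62, 11.77 and 11.84. Double mutants 2 to 4 lay above the other 8 arrays, and replicate 1 lay below them all. The difference between double mutants and 1 Mek1 allele was 0.27 ± 0.10 for Col4a1 (limma adjusted p = 0.301) and 0.23 ± 0.12 for Col4a2 (adjusted p = 0.530). Between double mutants and controls it was 0.12 ± 0.10 for Col4a1 (adjusted p = 0.545) and 0.26 ± 0.12 for Col4a2 (adjusted p = 0.286). Without double mutant replicate 1 it was 0.39 for Col4a2 (adjusted p = 0.0628), and without double mutant replicate 3 it was 0.20 (adjusted p = 0.488). Without double mutant replicate 4 it was 0.05 for Col4a1 (adjusted p = 0.841). Col4a3 and Col4a4, chains of the later kidney and alveolar basement membranes, differed by -0.08 ± 0.15 and -0.11 ± 0.14 between double mutants and controls.

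Fibrillar collagens had 6 of 10 genes tested and 0 called. Col1a1, the α1 chain of collagen I, read 9.96, 11.09, 10.92 and 11.0002 in double mutants. Lungs with 1 Mek1 allele read 10.83, 10.59, 11.21 and 10.83, and in controls 10.67, 10.55, 10.79 and 10.81. Double mutant replicate 1 was the lowest of all 12 arrays, and its 3 companions lay above every control. The difference between double mutants and controls was 0.04 ± 0.21 (limma adjusted p = 0.949), and 0.30 without replicate 1 (adjusted p = 0.284). Col1a2, its partner chain, averaged 6.29 ± 0.19 in double mutants, 6.22 ± 0.25 with 1 Mek1 allele and 6.18 ± 0.19 in controls (SD, n = 4 each). Col3a1, the collagen of compliant tissues, averaged 7.04 ± 0.36 in double mutants, 6.93 ± 0.32 with 1 Mek1 allele and 7.13 ± 0.35 in controls. Col5a1, a collagen V chain that sets fibril width, averaged 11.47 ± 0.10 in double mutants, 11.32 ± 0.18 with 1 Mek1 allele and 11.38 ± 0.06 in controls. Col24a1, detected on 4 of 12 arrays, averaged 5.17 ± 0.28 in double mutants, 4.87 ± 0.26 with 1 Mek1 allele and 5.37 ± 0.25 in controls. With 1 Mek1 allele, 0 of its 3 probes were detected on any of the 4 arrays, so that group has no measured level to set against the others, and no fold is given (adjusted p against controls = 0.169). The remaining fibrillar gene tested, Col27a1, differed by 0.15 ± 0.16 between double mutants and controls.

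Of the other collagens, 8 of 14 were tested and 0 called. Col14a1 encodes a collagen that decorates collagen I fibrils. It read 7.86, 8.02, 7.81 and 7.90 in double mutants. Values in the 1 Mek1 allele group were 8.07, 7.76, 7.88 and 8.001, and in controls 7.79, 7.36, 7.40 and 7.57. All double mutants lay above all controls, by a narrow margin over control replicate 1, and the 2 mutant groups overlapped. The difference from controls was 0.37 ± 0.11 in double mutants (limma adjusted p = 0.104) and 0.40 ± 0.11 with 1 Mek1 allele (adjusted p = 0.113), and between the 2 mutant groups it was -0.03 ± 0.11. Without control replicate 1 the first of these was 0.45 and passed the test (Col14a1, adjusted p = 0.045). Col14a1 passed between double mutants and controls under 2 of the 27 alternative settings that keep the same threshold. Over the 28 settings this difference ran from 0.22 to 0.45 and its adjusted p from 0.0263 to 0.579.

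Col17a1, a transmembrane collagen of epithelial hemidesmosomes, had 3 probes, 1 of them past the filter. That probe was above background on 2 of 4 arrays in double mutants, 0 of 4 with 1 Mek1 allele and 3 of 4 in controls. It read 5.35, 5.38, 5.53 and 4.86 in double mutants. With 1 Mek1 allele it read 4.65, 4.70, 5.55 and 4.98, and in controls 5.28, 6.27, 5.73 and 6.02. At this probe the groups overlapped, and 1 Mek1 allele against controls did not pass the test (limma adjusted p = 0.104). At a second probe 1 array with 1 Mek1 allele, replicate 3 at 6.04, lay above every control, and the group averaged 5.33 against 5.43 in controls. The third probe averaged 5.03 in double mutants, 5.14 with 1 Mek1 allele and 5.71 in controls, and was above background on 3 controls only. At both of these dimmer probes every double mutant lay below every control, but none was above background. No fold is given for the gene. Col26a1, a little-studied collagen, read 9.65, 9.54, 9.32 and 9.56 in double mutants. The group with 1 Mek1 allele read 9.09, 9.17, 9.03 and 9.37, and in controls 9.51, 8.98, 9.07 and 9.33. Its difference was 0.35 ± 0.13 between double mutants and 1 Mek1 allele (adjusted p = 0.305) and 0.30 ± 0.13 between double mutants and controls (adjusted p = 0.238). The vessel and basement membrane collagens Col15a1 and Col18a1 differed by -0.39 ± 0.20 and 0.01 ± 0.10 between double mutants and controls. Col15a1 was -0.21 without double mutant replicate 1. The others tested, Col7a1, Col16a1 and Col23a1, differed by -0.09 to 0.22.

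**Figure D3:**
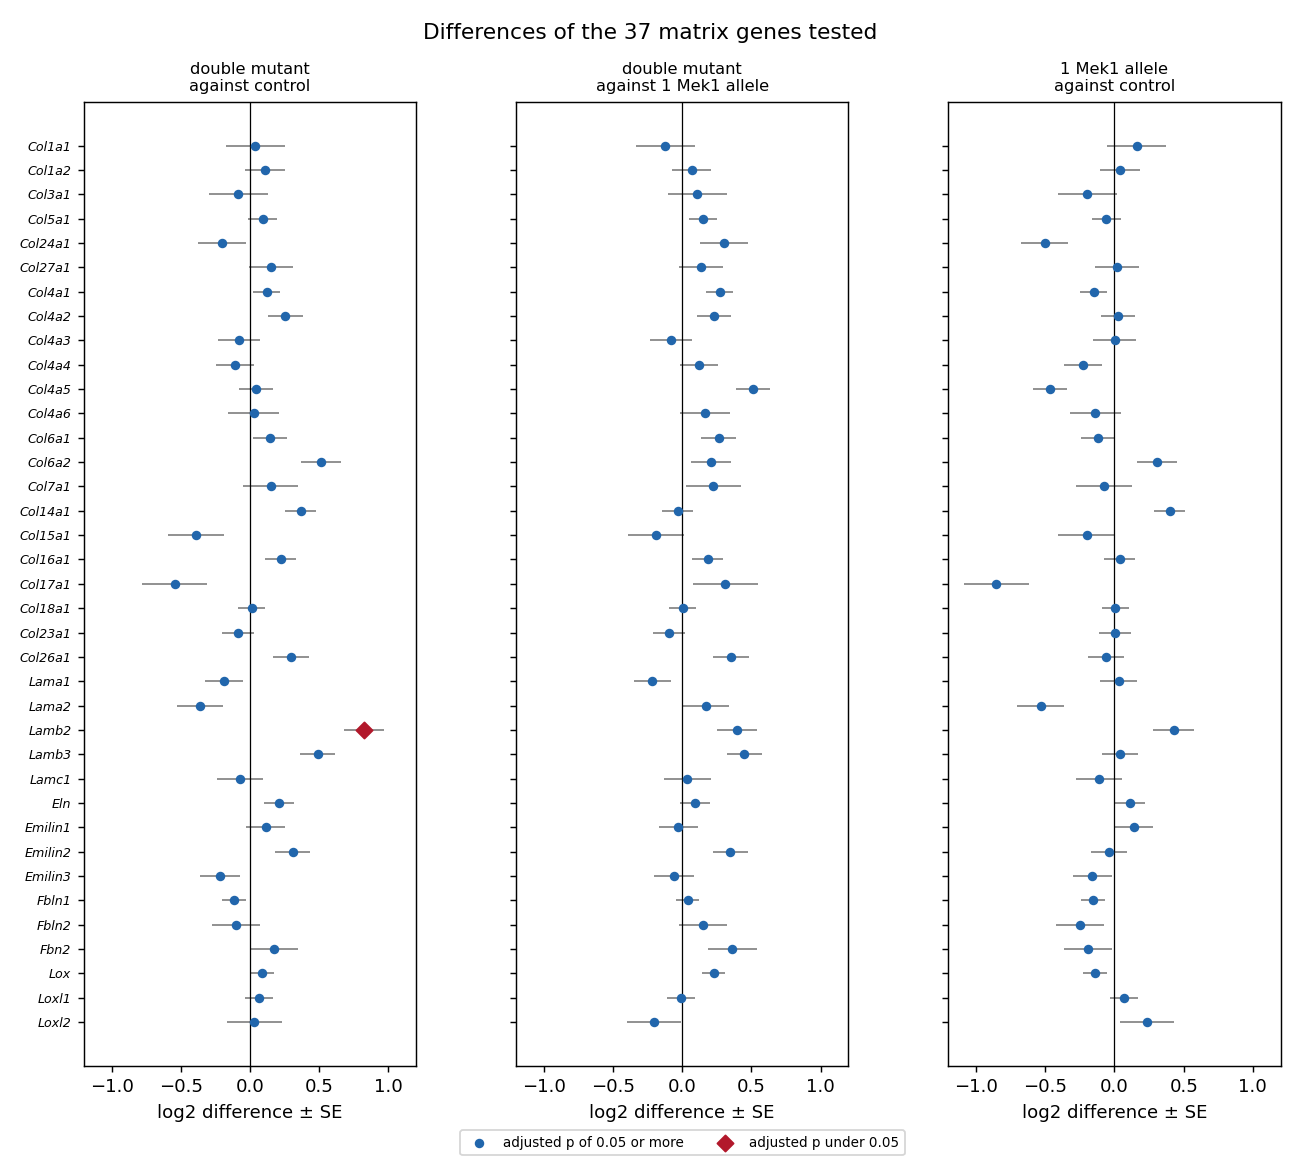
Log2 differences ± SE of the 37 tested matrix genes in the 3 comparisons. The diamond marks Lamb2 in double mutants against controls, which alone passed the adjusted p of 0.05. In the middle and right panels Col4a5 lies at 0.51 and -0.47. The points of Col17a1 and Col24a1 in those panels rest on arrays with 1 Mek1 allele that were not above background.

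Elastin, the core of the elastic fibre, read 11.51, 11.88, 11.84 and 11.88 in double mutants. Arrays with 1 Mek1 allele read 11.69, 11.69, 11.74 and 11.59, and in controls 11.69, 11.66, 11.51 and 11.40. Double mutants 2 to 4 lay above all 8 other arrays, and replicate 1 lay among the controls. The difference between double mutants and controls was 0.21 ± 0.11 (limma adjusted p = 0.315), and 0.30 without replicate 1 (adjusted p = 0.141). Fbn2, a fibrillin of embryonic microfibrils, read 6.37, 6.50, 6.61 and 6.74 in double mutants. Lungs with 1 Mek1 allele read 5.81, 6.30, 6.35 and 6.31, and in controls 6.79, 6.03, 6.13 and 6.60. Double mutants lay above all arrays with 1 Mek1 allele (0.36 ± 0.18, adjusted p = 0.462), and controls overlapped both groups.

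The proteins that bind elastic fibres showed 0 calls. Fbln1, a fibulin of basement membranes and elastic fibres, averaged 11.88 ± 0.03 in double mutants, 11.84 ± 0.09 with 1 Mek1 allele and 11.997 ± 0.09 in controls (SD, n = 4 each). Double mutants lay below controls at this brightest probe, but the 3 probes differed in sign: their differences were -0.12, 0.28 and -0.23. Fbln2 differed by -0.10 and -0.20 at its 2 probes. Emilin1, a microfibril protein that limits TGF-β maturation, averaged 8.74 ± 0.19 in double mutants, 8.76 ± 0.21 with 1 Mek1 allele and 8.62 ± 0.22 in controls. Emilin2 read 6.45, 6.21, 6.27 and 6.62 in double mutants. Values in the 1 Mek1 allele group were 6.03, 5.93, 6.31 and 5.89, and in controls 6.01, 5.92, 6.31 and 6.08. The groups overlapped, and its differences were 0.31 ± 0.13 from controls (limma adjusted p = 0.215) and 0.35 ± 0.13 from 1 Mek1 allele (adjusted p = 0.306). Emilin3, detected on 11 arrays, differed by -0.22 ± 0.14 from controls.

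Lysyl oxidases cross-link collagen and elastin. Lox read 11.78, 11.86, 11.79 and 11.90 in double mutants. With 1 Mek1 allele it read 11.64, 11.56, 11.50 and 11.72, and in controls 11.68, 11.76, 11.73 and 11.81. Double mutants lay above all arrays with 1 Mek1 allele and overlapped controls. The difference from 1 Mek1 allele was 0.23 ± 0.08 (limma adjusted p = 0.316). Loxl1, needed in mice for elastic fibre upkeep, averaged 10.63 ± 0.11 in double mutants, 10.64 ± 0.14 with 1 Mek1 allele and 10.57 ± 0.09 in controls (SD, n = 4 each). Loxl2 averaged 6.10 ± 0.32 in double mutants, 6.31 ± 0.43 with 1 Mek1 allele and 6.07 ± 0.09 in controls, with a larger SD in both mutant groups than in controls.

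The comparison of double mutants with 1 Mek1 allele asked what followed from floxing the remaining Mek1 allele, since both groups were Mek2-/-. Of the 37 genes, 0 passed limma's test, where 0.541% of all genes were called, and 7 had an unadjusted p under 0.05 (18.9%, against 11.5% of all genes). Double mutants lay wholly above 1 Mek1 allele in Col4a5, Lamb3, Lox and Fbn2 and wholly below in 0 genes, so 4 genes were separated, against 6.34% of all genes. The median difference of the 37 genes was 0.15, against 0.0075 over all genes, and 10 of 37 differences were negative. The comparison of 1 Mek1 allele with controls asked what loss of Mek2 and of 1 Mek1 allele did. Again 0 of 37 genes passed, where 0.638% of all genes were called, and 6 had an unadjusted p under 0.05 (16.2%, against 16.4%). These 6 include Col17a1 and Col24a1, whose tested probes were above background on 0 arrays with 1 Mek1 allele. Lamb2 and Col6a2 lay wholly above controls and Col4a5 wholly below. With Col24a1, whose lower values were not above background, 4 genes were separated, against 9.91% of all genes. The median difference was -0.06, against -0.010 over all genes. The 3 comparisons share arrays, pair by pair.

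**Figure D4:**
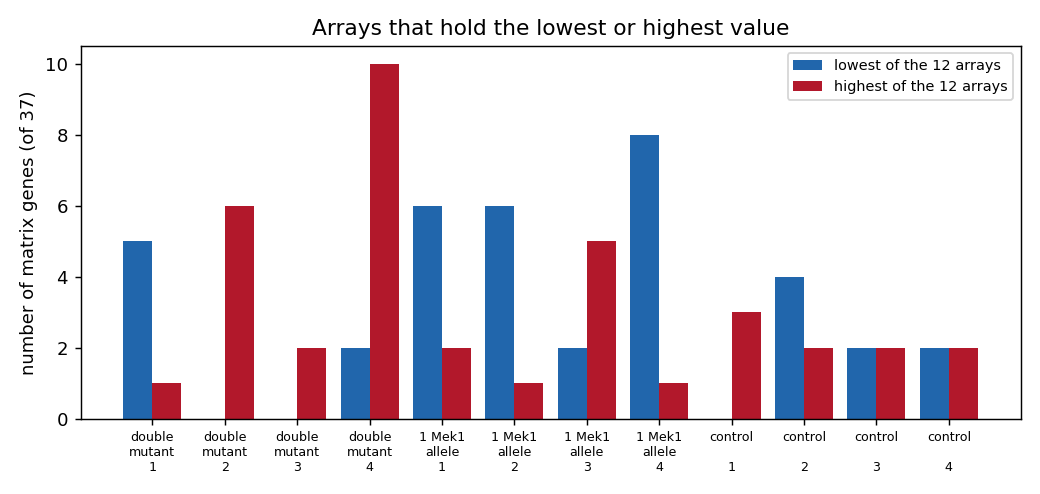
Number of the 37 tested matrix genes whose lowest (blue) or highest (red) of 12 values fell on each array, by genotype and replicate. Double mutant replicate 4 held the highest value in 10 genes, and replicate 4 with 1 Mek1 allele held the lowest in 8. Replicates 1 and 2 with 1 Mek1 allele held the lowest value in 6 each, and double mutant replicate 1 in 5.

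By array, the highest of 12 values fell on double mutant replicate 4 in 10 of 37 genes (27.03%, against 10.8% of all genes). The lowest fell on replicate 4 with 1 Mek1 allele in 8 (21.6%, against 10.1% of all genes). Replicates 1 and 2 with 1 Mek1 allele held the lowest in 6 each (16.2%, against 8.27% and 8.96% of all genes). Double mutant replicate 1 held it in 5 (13.5%, against 7.80%). Double mutant replicates 2 and 3 held the lowest value of 0 matrix genes (against 6.63% and 5.22% of all genes), as did control replicate 1 (against 6.89%).

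Genes that make, cut or bind this matrix were read from lists of related genes. Of 20 tested genes of collagen processing and secretion, 14 of matrix degradation, 7 basement membrane partners, 13 elastic fibre partners, 18 matrix receptors and 5 TGF-β response genes, 0 were called in any of the 3 comparisons. With 3.02%, 0.541% and 0.638% of all genes called in those comparisons, few or no calls fall on lists of this size, so these zeros do not set the lists apart. Their median differences between double mutants and controls were 0.03, 0.11, -0.09, 0.13, 0.12 and -0.23 in that order, against -0.0036 over all genes. Of 18 proteoglycans and other matrix glycoproteins, 1 rose, and 0 fell, in double mutants against controls, and 0 were called in the other 2 comparisons. This was Spon2, a secreted matrix protein that binds bacteria and integrins, which averaged 10.29 ± 0.20 in double mutants and 9.46 ± 0.21 in controls (difference 0.83 ± 0.13, limma adjusted p = 0.0074).

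Markers of other cell types moved between the same groups. In whole lung, fewer cells of a type and less RNA per cell cannot be told apart. Of 6 mesothelial markers measured, Upk3b (0.65 ± 0.13, limma adjusted p = 0.0162), Rspo1 (0.95 ± 0.19, 0.0175) and Krt19 (0.69 ± 0.15, 0.0241) were higher in double mutants than in controls, and Msln was below the filter. The other mesothelial markers tested, Wt1, Upk1b and Aldh1a2, did not pass against controls, and the median of the list was 0.36. The summed intensity of the list ran from 1797 to 2257 in double mutants, from 1358 to 1598 with 1 Mek1 allele and from 1303 to 1517 in controls. Of 5 macrophage markers 1 rose, C1qc (0.81 ± 0.13, limma adjusted p = 0.0075). C1qa also lay wholly above controls (0.83 ± 0.24, adjusted p = 0.0884), and Mrc1 differed by -0.26 ± 0.15 in double mutants and lay wholly below controls with 1 Mek1 allele (-0.60 ± 0.15, adjusted p = 0.0857). The median of the macrophage list was 0.55, and its summed intensity was 1109 to 1902 in double mutants and 1101 to 1231 in controls, which overlapped. Of 7 endothelial markers 1 rose, Tie1 (0.34 ± 0.09, adjusted p = 0.0497), while Emcn lay wholly below controls (-0.23 ± 0.12, adjusted p = 0.297) and Tek and Esam differed by -0.19 ± 0.12 and -0.08 ± 0.10. The median of the endothelial list was 0.04, and its summed intensity overlapped between double mutants (15925 to 17444) and controls (16607 to 17453). Rgs5, 1 of 4 pericyte markers, was lower (-0.80 ± 0.13, limma adjusted p = 0.0074). Pdgfrb, Cspg4 and Notch3 were not called, and 0 pericyte markers lay wholly above controls. The median of the pericyte list was 0.004, and its summed intensity overlapped between double mutants (700 to 825) and controls (779 to 970). Slc4a1, 1 of 6 red cell markers, was lower in double mutants than in controls (-1.03 ± 0.19, limma adjusted p = 0.0127). The median of the red cell list was -0.16. Its summed intensity was 39364 to 46180 in double mutants and 34208 to 42819 in controls, which overlapped. Rspo1 and Slc4a1 also passed between double mutants and 1 Mek1 allele, at 0.96 ± 0.19 and -0.99 ± 0.19 (adjusted p = 0.0398 for both), and 0 markers passed between 1 Mek1 allele and controls. Of 6 fibroblast and mesenchyme markers and 5 of smooth muscle, 0 were called, and likewise 0 of 4 for cartilage, 7 for skeletal and cardiac muscle and 1 for nerve and Schwann cells. The median of the skeletal and cardiac muscle list was 0.38 between double mutants and controls and 0.45 between 1 Mek1 allele and controls. Its summed intensity was 2164 to 2478 in double mutants, 1812 to 2215 with 1 Mek1 allele and 1750 to 1921 in controls, so double mutants lay wholly above controls. Summed smooth muscle intensity was 25553 to 27511 in double mutants, wholly below the 27660 to 29695 of controls. The median of the smooth muscle list was 0.03 between these groups, with 1 marker wholly above controls and 1 wholly below. No bone marker passed the filter. Summed fibroblast intensity was 10697 to 15457 in double mutants, 12724 to 15050 with 1 Mek1 allele and 12129 to 13049 in controls. The part of these cell types in the differences of the matrix genes, Lamb2 included, was not tested.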

How the data were processed

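Per the labels' protocols, total RNA was extracted with Trizol, treated with DNase and labelled with biotin. The authors deposited a scanner table with 1 linear intensity per probe and array, not normalized between arrays, and a detection p-value beside it, per the file headers. Their deposited series matrix holds log2 values, and no source used here names their software. Here, background was fitted from the detection p-values (nec, offset 16) and log2 intensities were quantile normalized (limma 3.58.1, R 4.3.3). Of 25697 probes, 11841 reached a detection p under 0.01 on 4 or more arrays. The platform annotation gave 1 gene symbol to 23978 probes and none to 1719. The probe with the highest mean stood for its gene, leaving 8311 genes. Group means were fitted over all 12 arrays with lmFit and eBayes (9 residual degrees of freedom), on all probes that passed, and p-values were adjusted over the genes. Tested on simulated data drawn from these genes' means and spreads, the fit recovered 43.7% of changes of 0.5 and 88.6% of changes of 1 on the log2 scale for double mutants against controls. The arrays had 10467 to 11878 probes above background, and the number of arrays limits the precision.

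The genes, lists and tests were chosen with earlier results of these data known. Named were every gene of the group past the threshold, the 6 with the smallest p in each comparison, and a fixed list of main collagens, laminins and elastic fibre genes. Others are given by range or where probes or the filter concern them. Alternatives were other background, scaling, filter, probe and variance choices, covariates and left-out arrays. Replicate numbers are shared between genotypes, but deviations of same-numbered arrays correlated at -0.23 to 0.18, so the numbers were not taken to pair samples. No 2 arrays of a group held identical values (correlations within groups of 0.981 to 0.993). Such correlations cannot show whether the arrays came from separate lungs. Promoter windows came from a RefSeq table, and gene coordinates were not used otherwise, since the array files name no build.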

Additional observations from a re-analysis of the deposited data

Results flagged for a closer look

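In 9 of 99 sets of 4 arrays (33 genes named by the rule, 3 genotypes), 1 array lay far from its 3 companions, its gap to the nearest, as a share of the range of the 4, being over Dixon's 95% critical value. For independent sets of normal values, chance gives about 1 in 20. The 99 sets share the same 12 arrays and the share over all genes was not computed, so no excess is read from this count. Of these 9, 4 concerned double mutant replicate 1. It was low in Col1a1 (gap 0.847 of the range, 9.96 against 10.92 to 11.09), Eln (0.887, 11.51 against 11.84 to 11.88) and Lamc1 (0.914, 10.29 against 11.07 to 11.14), and high in Loxl2 (0.845, 6.57 against 5.88 to 5.98). Without this array, 2 genes were called between double mutants and controls, Col6a2 and Lamb2, in place of 1. The array was picked out by its values in these genes, so this change is not independent of that choice. The cause was not tested.

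Double mutant replicate 3 was high in Emilin3 (0.944, 6.15 against 5.59 to 5.62). With 1 Mek1 allele, replicate 4 was low in Col4a3 (0.888, 5.46 against 5.84 to 5.88) and replicate 1 in Fbn2 (0.895, 5.81 against 6.30 to 6.35). Control replicate 2 was high in Col24a1 (0.876, 5.74 against 5.22 to 5.28) and control replicate 1 in Lama1 (0.925, 8.80 against 8.55 to 8.57).

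Fbln7, a fibulin left out of the tests by the filter, was above background on 3 of 4 double mutants and on 0 of the other 8 arrays. Its level averaged 5.28 ± 0.41 in double mutants, 4.99 ± 0.18 with 1 Mek1 allele and 5.03 ± 0.24 in controls (SD, n = 4 each). With no filter the difference between double mutants and controls was 0.26 ± 0.18 (limma adjusted p = 0.662).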

How the results depend on the processing

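Between double mutants and controls, 1 gene of the group was called. The count was 3 with no background correction, a background offset of 50, the authors' deposited log2 values, eBayes with trend and robust, or an adjusted p under 0.10 (Lamb2, Lamb3 and Col6a2 each time). It was 2 with a detection filter on all 12 arrays, the mean of the passing probes or only the arrays compared (Lamb2 and Lamb3), and 4 with array weights, which add Col14a1. It was 0 with array brightness as a covariate (Lamb2 0.74, adjusted p = 0.0588) and without the 2 brightest arrays, both controls (0.82, adjusted p = 0.131). Leaving out each array gave 1 to 2. Over the 28 settings the adjusted p of Lamb2 ran from 0.00055 to 0.131 and its difference from 0.69 to 0.92. With the replicate block the count was 1 (Lamb2, adjusted p = 0.0176) and 0 in the other 2 comparisons, so it changed no call of these genes. Between double mutants and 1 Mek1 allele the count of 0 became 1 (Col4a5) with no background correction (adjusted p = 0.0484) or an adjusted p under 0.10, and the adjusted p of Col4a5 ran from 0.0484 to 0.255. Between 1 Mek1 allele and controls it became 1 (Col4a5) with no background correction (0.0445), eBayes with trend and robust (0.0476) or an adjusted p under 0.10, and ran from 0.0445 to 0.346. Leaving out each array gave 0 in both. No named gene that was called changed sign. Over all genes, the 251 calls between double mutants and controls became 591 with array weights, 432 with the authors' values, 426 with no background correction, 407 with trend and robust, 146 with the replicate block, 77 with the brightness covariate and 10 without the 2 brightest arrays. Leaving out 1 array gave 109 (control replicate 2) to 288 (replicate 3 with 1 Mek1 allele). The other 2 comparisons called 45 and 53 genes, 34 and 25 of them higher, and with upper-quartile scaling 23 and 49, 15 and 29 of them higher. The cause of these changes was not tested. Col24a1 was not above background with 1 Mek1 allele at any probe, nor was the tested probe of Col17a1, so no fold is given for them there.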
